A study of Homo sapiens with 12 samples.

Results

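Integrins, laminins and collagens are the receptors and ligands with which an epithelial cell holds to its basement membrane. Members were the rows of both count tables whose symbols are those of an integrin subunit, a laminin chain or a collagen chain. There were 80 among 28008 genes, namely 24 integrins, 12 laminins and 44 collagens. Of these, 52 had a mean raw count of 10 or more over the 6 libraries of a line and are reported, namely 19 integrins, 9 laminins and 24 collagens. In QGP-1 cells 44 members passed this minimum and in BON-1 cells 43, with 35 in both lines, 9 in QGP-1 cells alone and 8 in BON-1 cells alone. The members nearest to the minimum from above were COL9A1, at a mean of 10 counts in QGP-1 cells, and COL16A1, at 11.5 in BON-1 cells. From below they were COL11A2 with 9.667, COL21A1 with 8.333 and COL6A2 with 8. The 28 members below it include the leukocyte integrins ITGAL, ITGAM, ITGAX and ITGB2, and LAMA1, the laminin chain of the early embryo.

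RNA-seq was performed on QGP-1/tet-MUC1shRNA cells and on their BON-1 counterpart, established lines from human pancreatic neuroendocrine tumors. Both carry a doxycycline (DOX)-inducible short hairpin RNA against MUC1. For each treatment, 3 cultures of each line were kept for 7 days with DOX at 500 ng/mL or with the vehicle, 0.1% DMSO. Each line is a population of transduced, drug-selected cells, and all 12 libraries carry the hairpin. Effects of DOX itself, of the DMSO vehicle and of MUC1-C silencing therefore cannot be told apart. Depth ranged from 38224144 to 50525926 counts per QGP-1 library and from 15981954 to 28484324 per BON-1 library. MUC1 stood between 5.79 and 7.37 CPM (read counts scaled to a common library size) with vehicle and between 0.722 and 1.07 CPM with DOX in QGP-1 cells. The BON-1 libraries stood between 15 and 20.2 CPM with vehicle and between 1.42 and 3.93 CPM with DOX, with no overlap in either line.

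An integrin is a pair of 1 alpha and 1 beta subunit in the cell membrane, and the pairing decides which ligand is bound. A laminin is a cross-shaped trimer of an alpha, a beta and a gamma chain that polymerizes at the cell surface. Collagens are triple helices, either of 1 chain type or of a fixed set of chains. Collagen IV forms the network of basement membranes, the fibrillar collagens make the fibers of the stroma, and the FACIT collagens decorate those fibers. In pancreatic islets, endocrine cells rest on a basement membrane rich in laminin and collagen IV, which they touch mainly through ITGB1 integrins.

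The markers of the labelled cell type were present. The summed level of 10 neuroendocrine markers lay between 6230 and 7600 CPM in QGP-1 libraries and between 9270 and 14900 CPM in BON-1 libraries, where NCAM1 was near 0 at 0.0588 CPM with vehicle. That of 8 epithelial markers lay between 2660 and 2830 CPM with vehicle and between 2540 and 2560 CPM with DOX in QGP-1 libraries. In BON-1 libraries it lay between 2580 and 3030 CPM with vehicle and between 3390 and 3960 CPM with DOX, without overlap. KRT8 (0.62), KRT18 (0.58), KRT19 (0.79) and ESRP1 (0.40) were called higher there, and of these markers only CLDN7 (−0.53) was called in the QGP-1 line. The neuroendocrine sum was between 11500 and 14900 CPM with vehicle and between 9270 and 9640 CPM with DOX in BON-1 libraries. CHGA went there from a mean of 7880 CPM to 2870 CPM (−1.46). Of the 9 neuroendocrine markers tested there, 4 were called lower and 2 higher, namely SCG2 (0.45) and SCG3 (0.27). Of 8 markers of fibroblasts and pericytes, 7 in the QGP-1 line and 4 in the BON-1 line were under 1 CPM in each treatment group, with sums between 7.69 and 25.2 CPM. THY1, DCN and PDGFRB were at or near 0 in both lines. Others of that list were expressed in BON-1 vehicle, with RGS5 at 9.16 CPM, FAP at 5.09 CPM, LUM at 5.04 CPM and PDGFRA at 3.8 CPM. LUM rose there with DOX (1.01, adjusted p = 6.2e-05), and FAP fell there (−1.04, adjusted p = 0.00567) and in QGP-1 cells (−2.65, adjusted p = 0.00334). The 6 endothelial markers summed to at most 1.69 CPM in QGP-1 libraries, whereas BON-1 libraries held between 32.7 and 41.1 CPM, nearly all of it KDR, while CDH5 and TEK were at or near 0. The 8 leukocyte markers summed to between 10.8 and 13.3 CPM with vehicle and between 17.5 and 21.6 CPM with DOX in QGP-1 cells. In BON-1 cells these sums were between 25 and 27.6 CPM and between 51.2 and 55.5 CPM, mostly from CD68, while PTPRC, CD3E, MS4A1 and TYROBP were at or near 0. The part of these markers in the changes of the members was not tested. In bulk samples, fewer cells of a type and less RNA per cell cannot be told apart.

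With DOX, both lines moved their adhesion genes in each direction. ITGB1, ITGA6, ITGA2 and COL22A1 rose in both QGP-1 and BON-1 cells, and ITGAV, ITGA1, LAMA5 and COL6A1 fell in both. ITGB6 fell in QGP-1 cells and rose in BON-1 cells, and LAMB1 did the reverse. In QGP-1 cells 8 of the 44 members tested fell with DOX and 9 rose (edgeR's quasi-likelihood test, adjusted p below 0.05), which is 38.6% against 35% of all genes tested. The genes lower were 17.7% and the genes higher 17.3% of the whole table. In BON-1 cells 14 of 42 were lower and 10 were higher, or 57.1% against 35.3% of all genes tested, where 18.3% were lower and 17% higher. The members had a median log2 fold change of −0.08 in the QGP-1 line and 0.03 in the BON-1 line, beside −0.012 and −0.01 over all genes.

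Of the 35 members tested in both lines, 25.7% were called in the same direction in both and 5.71% in opposite directions. Over all 13535 genes tested in both lines these shares were 14.1% and 2.69%. The QGP-1 share of members called is close to the share over all genes. Without QGP-1 vehicle replicate 1 or 2, 5 members were lower in QGP-1 cells instead of 8. The smallest two-sided p that exact permutation of 3 and 3 libraries allows is 0.1, and the values given here come from a spread that edgeR estimates over all genes. On the deposited TPM scale the median of all genes moved to 0.59 in the QGP-1 line and −0.31 in the BON-1 line, and on that scale the QGP-1 values of ITGAV, ITGA1 and ITGA3 were 0.14, 0.48 and 0.34, positive but below that median. In BON-1 cells limma called none of the 28 members tested on that scale, with 8 at an unadjusted p under 0.05. Over all genes it called 229 of 11954 lower and 29 higher there. DESeq2 on the counts called 22 members in that line.

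**Figure D1:**
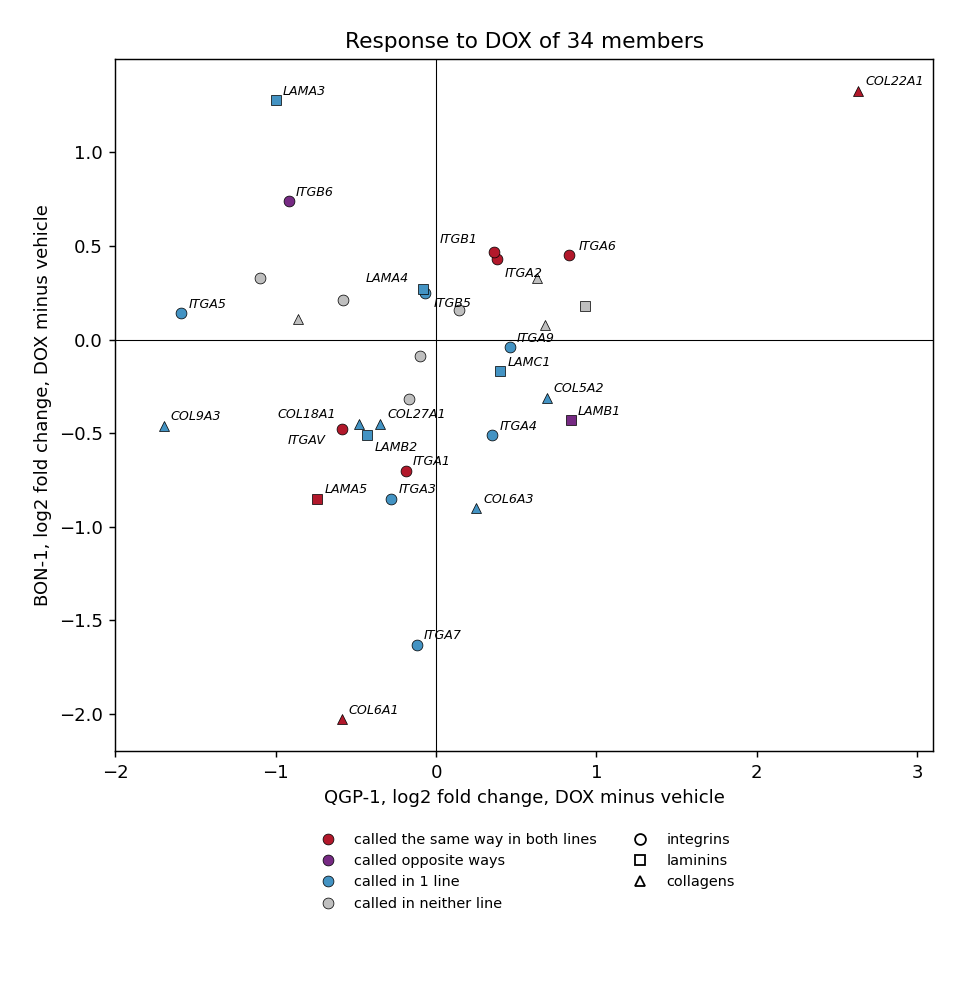
Log2 fold change with DOX in QGP-1 cells (horizontal axis) against BON-1 cells (vertical axis) for 34 of the 35 members tested in both lines, 1 point per gene, with symbols for the families and colors for the calls at an adjusted p below 0.05. COL22A1 lies far to the upper right at 2.63 and 1.33, ITGB6 lies to the upper left at −0.92 and 0.74, and LAMB1 to the lower right at 0.84 and −0.43.

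Among the integrins, the beta subunit shared by most receptors was the most abundant transcript per length and rose in both lines. ITGB1, which pairs with the collagen, laminin and fibronectin binding alpha subunits, stood at 324, 295 and 323 CPM with vehicle and at 361, 410 and 440 CPM with DOX in QGP-1 cells. In BON-1 cells it stood at 799, 715 and 737 CPM with vehicle and at 1010, 1060 and 1070 CPM with DOX. Each DOX library lay above each vehicle library in both lines, by a log2 fold change of 0.36 (SE 0.08, adjusted p = 0.00262) in the QGP-1 line and 0.47 (SE 0.08, adjusted p = 2.85e-05) in the BON-1 line. Its share of the summed TPM of the beta subunits, which corrects for length, went from 80.3% ± 0.307 (SD, n = 3) to 87.9% ± 0.757 in QGP-1 cells. The BON-1 share went from 88.5% ± 0.318 to 90.1% ± 0.322.

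ITGA6, an alpha subunit of laminin receptors that pairs with ITGB1 or ITGB4, rose with it. In QGP-1 cells ITGA6 stood at 149, 139 and 146 CPM with vehicle and at 246, 258 and 265 CPM with DOX. The corresponding BON-1 levels were 94.1, 84.8 and 82.1 CPM and then 122, 118 and 118 CPM. The groups were well apart in both lines. The rise was larger in QGP-1 cells, at a log2 fold change of 0.83 (SE 0.07, adjusted p = 9.23e-07), than in BON-1 cells, at 0.45 (SE 0.08, adjusted p = 4.83e-05), and the difference of these responses itself passed the test at −0.37 (SE 0.10, adjusted p = 0.0142). By TPM, ITGA6 went from 27.9% ± 0.49 (SD, n = 3) to 45.2% ± 0.651 of all alpha subunit transcripts in QGP-1 cells, and in the BON-1 line from 9.16% ± 0.285 to 15.5% ± 0.889.

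ITGB4, the partner of ITGA6 in hemidesmosomes, was scarce and did not pass the test. Its QGP-1 levels were 4.55, 4.32 and 2.76 CPM with vehicle and 3.52, 3.48 and 3.26 CPM with DOX. Those in BON-1 cells were 3, 2.29 and 2.67 CPM and then 1.61, 2.85 and 1.91 CPM. The groups overlapped in both lines, with adjusted p = 0.569 and 0.447.

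ITGA3, the alpha subunit of another laminin receptor, fell in BON-1 cells. There it stood at 31.4, 34.5 and 33.2 CPM with vehicle and at 18.1, 19.8 and 17.5 CPM with DOX, clearly apart, with a log2 fold change of −0.85 (SE 0.11, adjusted p = 6.88e-07). In QGP-1 cells it stood at 39.9, 36.8 and 34.4 CPM with vehicle and at 26.4, 35.4 and 29.5 CPM with DOX. There the groups overlapped and the value of −0.28 (SE 0.11, adjusted p = 0.0563) missed the threshold. The responses of the lines differed by −0.55 (adjusted p = 0.0152), a call lost without QGP-1 DOX replicate 2, where the value was −0.43.

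ITGAV, which pairs with several beta subunits and binds ligands such as vitronectin, fell in both lines on the count scale. Its QGP-1 value on the TPM scale was 0.14, below the median of 0.59 over all genes. In QGP-1 cells it stood at 172, 163 and 194 CPM with vehicle and at 111, 122 and 118 CPM with DOX. The BON-1 levels were 205, 199 and 190 CPM with vehicle and 143, 138 and 147 CPM with DOX. The groups did not overlap, and the log2 fold changes were −0.59 (SE 0.08, adjusted p = 6.27e-05) and −0.48 (SE 0.07, adjusted p = 8.45e-06). By TPM, ITGAV went from 28.4% ± 1.84 (SD, n = 3) to 17.2% ± 0.427 of the alpha subunits in QGP-1 cells, and in the BON-1 line from 17.4% ± 0.509 to 15.5% ± 0.51.

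**Figure D2:**
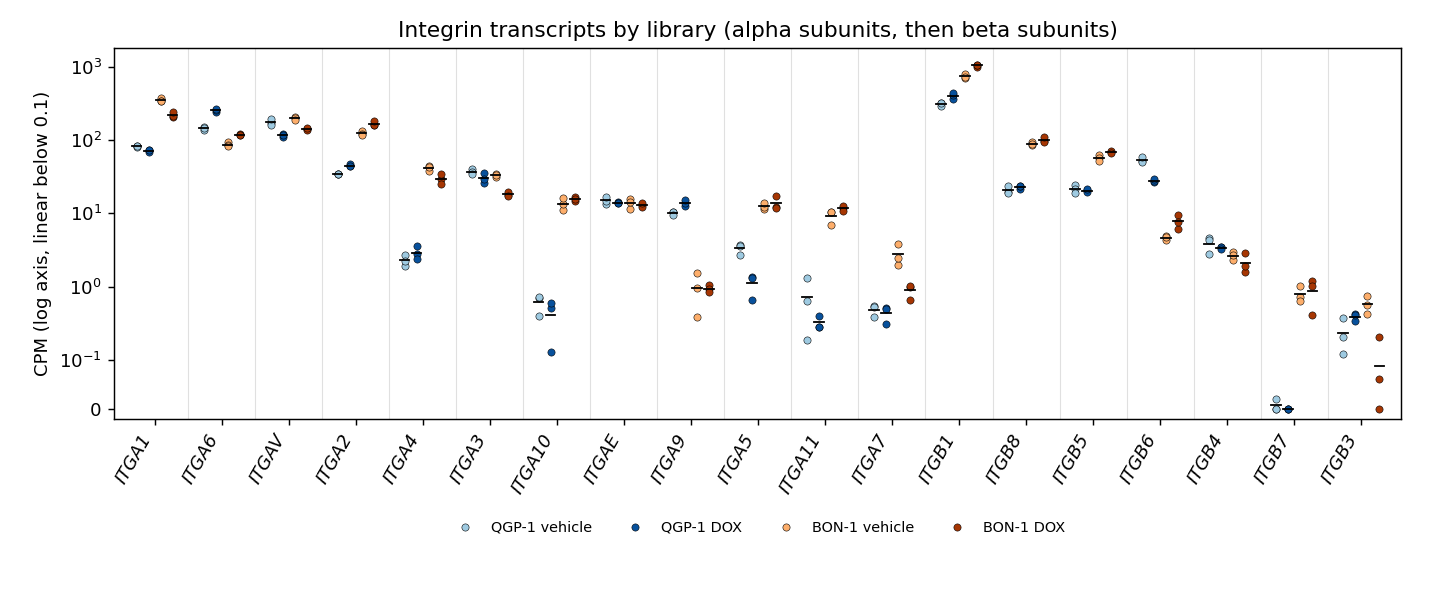
Level in CPM (vertical axis, logarithmic above 0.1) of the 19 reported integrin subunits in each of the 12 libraries, with 1 point per library and a bar at the mean of 3. ITGB1 is at least 295 CPM in every library, and ITGB6 is between 26.9 and 58.5 CPM in QGP-1 cells and between 4.35 and 9.66 CPM in BON-1 cells.

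Exons of 28 of the 52 reported members overlap another gene, 6 of them over 10% or more of their bases. The beta subunits that pair with ITGAV differed between the lines. ITGB6, which with ITGAV activates latent TGF-beta in epithelia, stood at 51.4, 50.1 and 58.5 CPM with vehicle and at 26.9, 27.8 and 29.6 CPM with DOX in QGP-1 cells. The levels in BON-1 cells were far lower, at 4.35, 4.92 and 4.75 CPM with vehicle and at 9.66, 6.21 and 7.71 CPM with DOX. The DOX libraries were all below vehicle in QGP-1 cells and all above it in BON-1 cells. The log2 fold changes were −0.92 (SE 0.09, adjusted p = 4.98e-06) and 0.74 (SE 0.20, adjusted p = 0.00545), and they differed by 1.67 (SE 0.19, adjusted p = 1.16e-06). The BON-1 call was lost without BON-1 DOX replicate 1, at 0.55. Exons of ITGB6 share 16.7% of their bases with another gene of the same strand, and how reads there were assigned is not given in the sources used here.

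ITGB5 and ITGB8, the other epithelial partners of ITGAV, changed little. In BON-1 cells ITGB5 rose from 57.6 ± 5.38 CPM (SD, n = 3) to 69.1 ± 3.14. Its value on the TPM scale was −0.10, beside a median of −0.31 over all genes. On the counts it was called at a log2 fold change of 0.25 (SE 0.09, adjusted p = 0.0257). That call was lost without BON-1 vehicle replicate 2 or 3 or DOX replicate 1 or 2, at values between 0.19 and 0.24. In QGP-1 cells ITGB5 was at −0.07, and the difference between the lines was not called (adjusted p = 0.117). ITGB8 did not pass the test in either line, at 0.14 and 0.16. ITGB3 was scarce, with means between 0.0885 and 0.575 CPM in the 4 groups. Its responses differed between the lines at an adjusted p of 0.0374, but 9 of the 12 fits that left out 1 library lost that call, and it shares 33.2% of its exon bases with another gene.

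The collagen receptors split. ITGA2, whose receptor prefers fibrillar collagen, stood at 34.7, 34.3 and 34.5 CPM with vehicle and at 44.3, 46.6 and 43.7 CPM with DOX in QGP-1 cells. Its BON-1 levels were 134, 121 and 118 CPM and then 162, 161 and 182 CPM. It rose in both lines without overlap, by 0.38 (SE 0.08, adjusted p = 0.00194) and 0.43 (SE 0.08, adjusted p = 8.51e-05) on the log2 scale. ITGA1, whose receptor prefers collagen IV, stood at 83.2, 81.1 and 82.1 CPM with vehicle and at 74.2, 69 and 72.4 CPM with DOX in QGP-1 cells. It was much higher in BON-1 cells, at 382, 337 and 345 CPM with vehicle and 204, 216 and 240 CPM with DOX.

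On the count scale ITGA1 fell in BON-1 cells, by a log2 fold change of −0.70 (SE 0.08, adjusted p = 5.77e-08). In QGP-1 cells its value on the TPM scale was 0.48, below the median of 0.59 over all genes. The fall on the counts was small there, at −0.19 (SE 0.07, adjusted p = 0.0463). That call was lost without any vehicle library or without DOX replicate 2 or 3, at values between −0.20 and −0.16. The difference between the lines was −0.50 (adjusted p = 0.0021). ITGA1 shares 13.2% of its exon bases with PELO and other genes. The other collagen binding subunits, ITGA10 and ITGA11, were at means of 0.612 and 0.715 CPM in QGP-1 vehicle and 13.6 and 9.29 CPM in BON-1 vehicle, and neither passed the test with DOX in either line.

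ITGA5 and ITGA9 were called in QGP-1 cells, and ITGA4 and ITGA7 in BON-1 cells. ITGA5, the classical fibronectin receptor subunit, stood at 3.74, 3.65 and 2.72 CPM with vehicle and at 1.36, 1.33 and 0.667 CPM with DOX in QGP-1 cells. All DOX libraries were below vehicle there (log2 fold change −1.59, SE 0.29, adjusted p = 0.000886), while in BON-1 cells the means were 12.5 ± 1.11 and 13.8 ± 3.18 CPM (SD, n = 3, adjusted p = 0.525). The difference of the responses was 1.73 (SE 0.31, adjusted p = 0.000356). ITGA9, a receptor subunit for tenascin-C, rose in QGP-1 cells from 10.5, 10.5 and 9.53 CPM to 12.7, 14 and 15.4 CPM, without overlap (0.46, SE 0.12, adjusted p = 0.00721). In BON-1 cells ITGA9 was at most 1.55 CPM in every library, and the difference between the lines was not called (adjusted p = 0.451).

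ITGA4, known from leukocytes and neural crest cells and a receptor subunit for fibronectin, fell in BON-1 cells from 41.9 ± 3.46 to 29.7 ± 4.81 CPM (SD, n = 3, log2 fold change −0.51, SE 0.11, adjusted p = 0.00059). In QGP-1 cells the means were 2.29 and 2.91 CPM (adjusted p = 0.289), and the responses differed by −0.85 (adjusted p = 0.0114). ITGA4 shares 26.4% of its exon bases with CERKL, which lies on the opposite strand. ITGA7, a laminin receptor subunit of muscle, fell in BON-1 cells from 2.76 ± 0.929 to 0.888 ± 0.202 CPM (SD, n = 3, −1.63, SE 0.38, adjusted p = 0.00132). Its difference between the lines of −1.51 was not called (adjusted p = 0.0985). ITGAE, which pairs with ITGB7 to bind E-cadherin, had means between 13 and 15 CPM in the 4 groups and did not pass the test, while its partner ITGB7 was at 0.00687 CPM in QGP-1 vehicle and 0.795 CPM in BON-1 vehicle.

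Of the laminin alpha chains, LAMA5 fell in both lines and LAMA3 rose in BON-1 cells. LAMA5, the alpha chain of the main adult epithelial laminins, stood at 13, 14.5 and 10.3 CPM with vehicle and at 6.43, 9.08 and 7.2 CPM with DOX in QGP-1 cells. In BON-1 cells it stood at 121, 136 and 114 CPM and then at 70.2, 74 and 62.5 CPM. It fell in both lines without overlap and by a similar size, −0.74 (SE 0.16, adjusted p = 0.00249) and −0.85 (SE 0.09, adjusted p = 1.1e-08), and the difference of −0.10 (SE 0.17) was not called.

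LAMA3, the alpha chain of the laminin that anchors hemidesmosomes, rose in BON-1 cells from 47.8, 48.8 and 42.5 CPM to 104, 119 and 117 CPM. The groups were far apart (log2 fold change 1.28, SE 0.08, adjusted p = 2.42e-12). In QGP-1 cells it was at 0.861, 0.807 and 0.433 CPM with vehicle and at 0.0637, 0.442 and 0.548 CPM with DOX, which overlapped (−1.0, SE 0.62, adjusted p = 0.232). The responses differed by 2.29 (SE 0.40, adjusted p = 0.000249). By TPM, LAMA3 went from 19.3% ± 0.681 (SD, n = 3) to 42.2% ± 2.47 of the alpha chains in BON-1 cells, and LAMA5 from 50.5% ± 1.18 to 25.2% of them.

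The leading alpha chain of QGP-1 cells was not detected in BON-1 cells. LAMA2, the alpha chain of muscle and nerve laminin, stood at 36.4, 36.2 and 37 CPM with vehicle and at 42.4, 42.8 and 44.3 CPM with DOX in QGP-1 cells. Every BON-1 library was at 0. Against 3 counts over the BON-1 vehicle group, LAMA2 was at least 861-fold lower there. The rise with DOX was small (0.24, SE 0.08, adjusted p = 0.0269), and it was lost without QGP-1 vehicle replicate 1 or 2 or DOX replicate 2 or 3, at values between 0.22 and 0.25. LAMA2 made up 64.3% ± 3.34 of the alpha chain TPM in QGP-1 vehicle and 73.7% ± 2.35 in QGP-1 DOX. LAMA4, a chain of vascular basement membranes, was at 48 ± 1.52 CPM in BON-1 vehicle and 58.4 ± 4.73 CPM in BON-1 DOX. Its value on the TPM scale was −0.08, beside a median of −0.31 over all genes. On the counts it was called at 0.27 (adjusted p = 0.0179). That call was lost without BON-1 vehicle replicate 1 or 3 or DOX replicate 2, at values between 0.20 and 0.26.

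**Figure D3:**
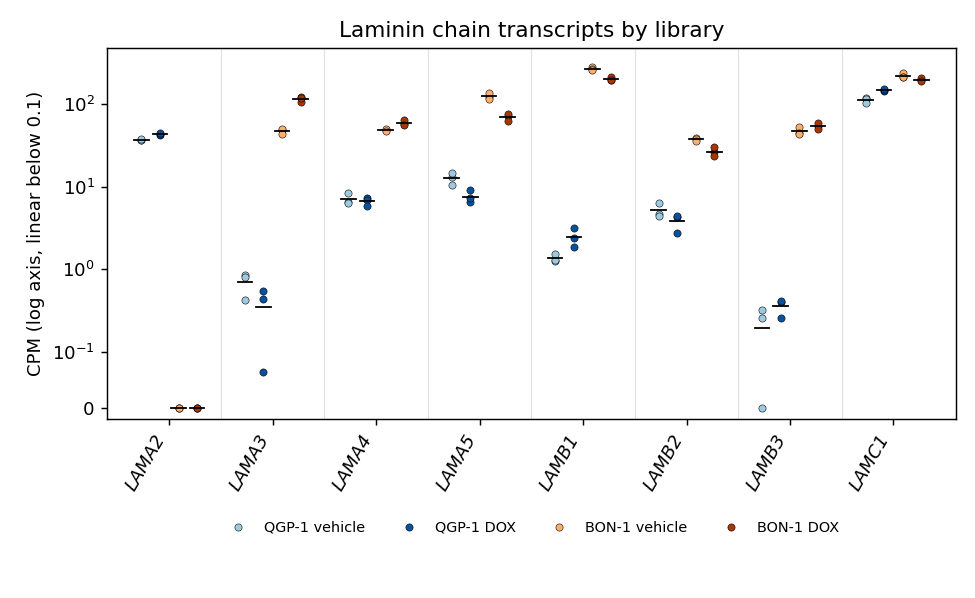
Level in CPM (vertical axis, logarithmic above 0.1) of 8 laminin chains in each of the 12 libraries, with 1 point per library and a bar at the mean of 3. LAMA2 is at 0 in all BON-1 libraries, and LAMA3, LAMB1 and LAMB3 are at 42.5 CPM or more in every BON-1 library and at most 3.2 CPM in every QGP-1 library.

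LAMB1, the beta chain of most laminins, differed greatly between the lines and moved in opposite directions. In QGP-1 cells it stood at 1.26, 1.3 and 1.55 CPM with vehicle and at 1.85, 3.2 and 2.36 CPM with DOX. The BON-1 libraries held 277, 265 and 253 CPM and then 191, 212 and 192 CPM. The groups did not overlap in either line, with values of 0.84 (SE 0.28, adjusted p = 0.0306) and −0.43 (SE 0.08, adjusted p = 5.76e-05) and a difference of −1.24 (SE 0.19, adjusted p = 7.92e-05). Leaving out QGP-1 vehicle replicate 1 or 2 or DOX replicate 2 or 3 ended the QGP-1 call, at values between 0.61 and 0.87. LAMB2, a beta chain of synaptic and kidney basement membranes, fell in BON-1 cells from 37.3 ± 1.64 to 26.3 ± 3.17 CPM (SD, n = 3, −0.51, SE 0.11, adjusted p = 0.000371), and its difference between the lines was not called (adjusted p = 0.889). By TPM, LAMB2 was 75.3% ± 3.06 of the beta chains in QGP-1 vehicle, and LAMB1 was 72.7% ± 0.733 of them in BON-1 vehicle.

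LAMB3, which joins LAMA3 in the laminin of hemidesmosomes, stood at 0.323, 0.261 and 0 CPM with vehicle and at 0.403, 0.416 and 0.262 CPM with DOX in QGP-1 cells, and at 52.4, 44.5 and 43.3 CPM and then 53.3, 57.7 and 49.1 CPM in BON-1 cells. The groups overlapped and neither line passed the test (adjusted p = 0.393 and 0.146).

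LAMC1, the common gamma chain, stood at 118, 114 and 103 CPM with vehicle and at 142, 147 and 151 CPM with DOX in QGP-1 cells, with no overlap (0.40, SE 0.07, adjusted p = 0.000714). The BON-1 levels were 234, 210 and 211 CPM with vehicle and 191, 205 and 190 CPM with DOX, where DOX was lower in each library but the value of −0.17 missed the threshold (adjusted p = 0.0807). The responses differed by −0.56 (SE 0.10, adjusted p = 0.000596).

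**Figure D4:**
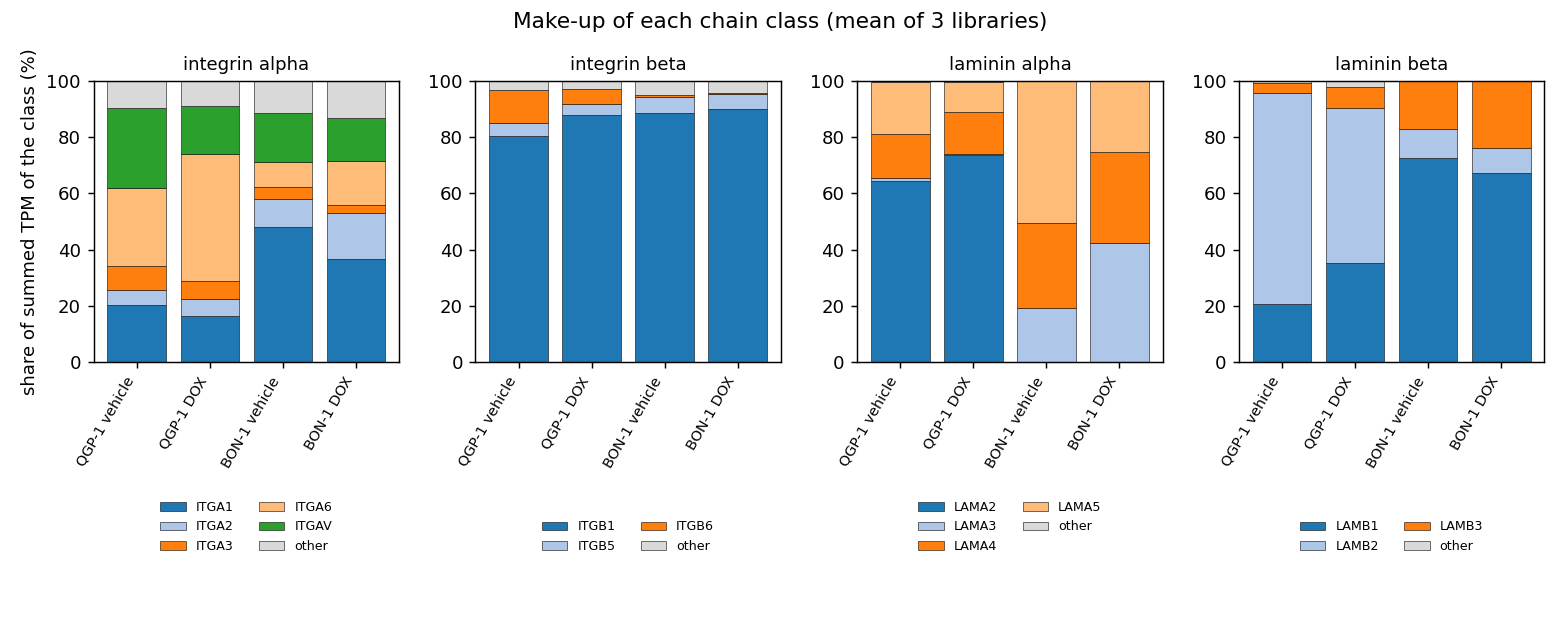
Share of the summed TPM of a class (vertical axis, percent) held by each integrin alpha, integrin beta, laminin alpha and laminin beta chain, as the mean of 3 libraries in each of the 4 groups; genes that reach 5% in no group are summed as other. ITGA6 goes from 27.9% to 45.2% in QGP-1 cells, and LAMA3 goes from 19.3% to 42.2% in BON-1 cells.

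The collagen IV genes lie in head-to-head pairs, and the lines used different pairs. COL4A1 and COL4A2 encode the chains of the collagen IV found in nearly all basement membranes. COL4A3 and COL4A4, with COL4A5, encode that of the kidney filter, and COL4A5 also joins COL4A6 in skin and smooth muscle. Stretches from between the start sites of each pair follow, because a shared start region is what joins these genes. They are printed as the plus strand of GRCh38.p14, from RefSeq, without annotated exons. Capitals mark matches on either strand of the GC box, spelled GGGCGG. They also mark the box spelled CCAAT.
COL4A1/COL4A2, chr13:110307158-110307257: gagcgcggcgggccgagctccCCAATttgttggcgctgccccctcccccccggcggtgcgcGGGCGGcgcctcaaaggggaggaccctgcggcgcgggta
COL4A4/COL4A3, chr2:227164489-227164623: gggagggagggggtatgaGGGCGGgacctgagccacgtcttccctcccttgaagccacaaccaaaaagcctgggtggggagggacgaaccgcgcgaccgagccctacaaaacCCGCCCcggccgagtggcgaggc
COL4A6/COL4A5, chrX:108439588-108439837: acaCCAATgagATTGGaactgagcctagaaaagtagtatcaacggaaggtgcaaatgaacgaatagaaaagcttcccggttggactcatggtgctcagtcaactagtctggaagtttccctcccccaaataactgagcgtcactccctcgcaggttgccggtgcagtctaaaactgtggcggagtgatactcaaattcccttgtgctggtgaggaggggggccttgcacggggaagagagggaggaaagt

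The starts of the pairs are 126, 135 and 379 bases apart, of which 100 bases are shown for the first pair, all for the COL4A4/COL4A3 pair and the 250 bases before COL4A5 for the last. Box counts are for the bases shown. The COL4A1/COL4A2 stretch of 100 bases has a GC content of 78% and holds 1 GC box, found in 31.3% of 35116 promoter stretches of that length, and 1 CCAAT box, found in 18.1%. The COL4A4/COL4A3 stretch of 135 bases has a GC content of 68.1% and holds 2 GC boxes (35.5% of promoters hold at least 1) and no CCAAT box. The COL4A5 stretch has a GC content of 51.2% and holds 2 CCAAT boxes (32% of promoters hold at least 1) and no GC box. TATAAA on either strand was found in none of the stretches. These letters are a description of the windows, not evidence of a factor there.

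COL4A1 stood at 0, 0.0474 and 0 CPM in QGP-1 vehicle and at 0 in all QGP-1 DOX libraries. In BON-1 cells it stood at 10.2, 11.4 and 12.4 CPM with vehicle and at 10, 11.2 and 12.5 CPM with DOX. COL4A2 followed it, at 0.0269, 0 and 0.0825 CPM and then 0, 0 and 0.0477 CPM in QGP-1 cells. The BON-1 levels of COL4A2 were 28, 30.3 and 26.9 CPM with vehicle and 25.4, 27.3 and 21.8 CPM with DOX. The lines did not overlap in either gene, and the BON-1 changes with DOX of −0.01 and −0.20 missed the threshold (adjusted p = 0.951 and 0.162).

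COL4A3 and COL4A4 showed the reverse. Their means were 3.31 ± 0.286 and 14.1 ± 2.22 CPM (SD, n = 3) in QGP-1 vehicle and 0.0712 and 0.0855 CPM in BON-1 vehicle, and neither passed the test with DOX in QGP-1 cells (adjusted p = 0.842 and 0.746). COL4A5 was at 1.31 ± 0.12 CPM in QGP-1 vehicle and 42.5 ± 3.13 CPM in BON-1 vehicle. It was 0.717 ± 0.185 and 46.2 ± 4.39 CPM with DOX, neither called alone, but the difference of the responses was 0.98 (SE 0.23, adjusted p = 0.00454). COL4A6 was near 0 in the QGP-1 line, but its BON-1 levels rose from 2.16, 3.62 and 3.52 CPM to 4.71, 5.85 and 7.41 CPM, without overlap (0.96, SE 0.25, adjusted p = 0.00313). By TPM, COL4A4 was 68.1% ± 2.76 and COL4A3 20.7% ± 0.604 of collagen IV in QGP-1 vehicle. In BON-1 vehicle COL4A5 was 50.6% ± 0.51, COL4A2 34.1% ± 1.59 and COL4A1 11.7% ± 1.03.

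**Figure D5:**
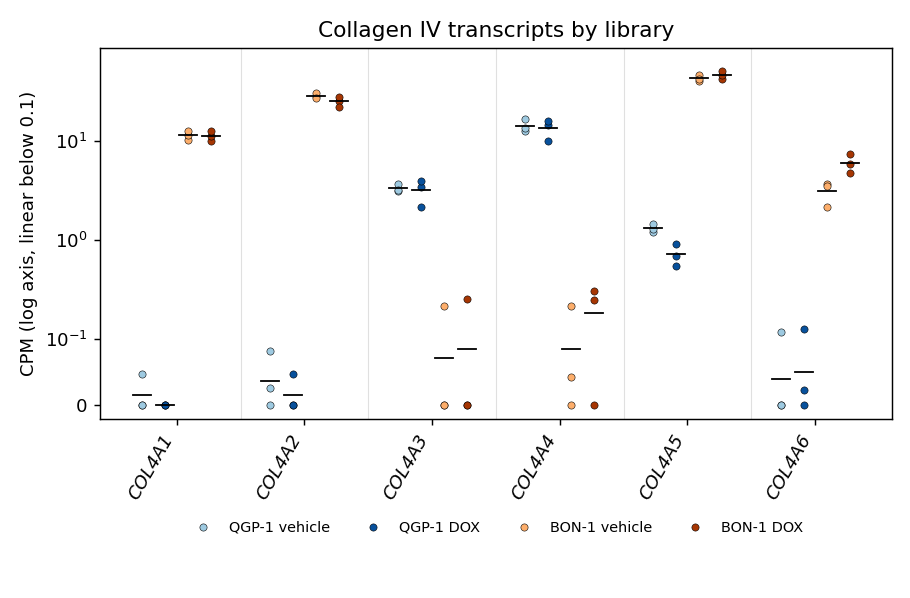
Level in CPM (vertical axis, logarithmic above 0.1) of the 6 collagen IV genes in each of the 12 libraries, with 1 point per library and a bar at the mean of 3. COL4A1 and COL4A2 are under 0.1 CPM in all QGP-1 libraries and at 10 CPM or more in all BON-1 libraries, while COL4A3 and COL4A4 are at least 2.14 CPM in QGP-1 cells and at most 0.305 CPM in BON-1 cells.

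The fibrillar collagens were led by 1 chain in BON-1 cells. COL5A2, a chain of the collagen V that starts collagen fibers, was at 187 ± 7.12 CPM in BON-1 vehicle and 151 ± 5.48 CPM in BON-1 DOX (SD, n = 3). It made up 54.5% ± 2.54 of all collagen TPM in BON-1 vehicle, and it fell with DOX without overlap (−0.31, SE 0.07, adjusted p = 0.00156). Its partner chain COL5A1 had a mean of 0 counts in BON-1 cells and 2 in QGP-1 cells. In QGP-1 cells COL5A2 was at most 1 CPM in every library and was not called at 0.69, and the difference of the responses of −0.97 (adjusted p = 0.0308) was lost without any of QGP-1 vehicle or DOX replicates 2 and 3 or BON-1 vehicle or DOX replicate 1, at values between −1.0 and −0.74.

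COL1A1, the main chain of collagen I, stood at 2.61, 3.27 and 1.77 CPM with vehicle and at 1.19, 1.25 and 0.977 CPM with DOX in QGP-1 cells. The groups did not overlap (−1.16, SE 0.29, adjusted p = 0.00727), though without QGP-1 vehicle replicate 2 the call was lost at −0.94. Its partner COL1A2 had a mean of 3.333 counts in that line, under the minimum. COL27A1, a fibrillar collagen of cartilage, fell in BON-1 cells from 27.7 ± 5.06 to 20.3 ± 1.23 CPM (SD, n = 3, −0.45, SE 0.12, adjusted p = 0.00514), a call lost without BON-1 vehicle replicate 2 at −0.31.

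Of collagen VI, 1 of 2 members tested was called in QGP-1 cells and 2 of 2 in BON-1 cells. Of the FACIT collagens these were 2 of 3 and 1 of 3. Over all genes tested, the shares called were 35% for the QGP-1 line and 35.3% for the BON-1 line. Classes of 2 or 3 genes are too small to compare with those shares. COL6A1, a chain of the beaded filaments around cells, stood at 5.78, 7.95 and 4.74 CPM with vehicle and at 4.95, 3.8 and 3.45 CPM with DOX in QGP-1 cells. The BON-1 line held 3.66, 4.23 and 5.12 CPM and then 1.11, 1.07 and 1.01 CPM. The QGP-1 groups overlapped and the BON-1 groups were far apart. The changes were −0.59 (SE 0.21, adjusted p = 0.0402) and −2.03 (SE 0.31, adjusted p = 6.81e-06), with a difference of −1.42 (SE 0.36, adjusted p = 0.00735). Leaving out QGP-1 vehicle replicate 1 or 2 or DOX replicate 2 or 3 ended the QGP-1 call, at values between −0.63 and −0.37. COL6A2, with which COL6A1 assembles, had mean counts of 7.833 and 8 in the lines.

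COL22A1, a FACIT collagen known from muscle and tendon junctions, rose in both lines from low levels. It stood at 0.269, 0.142 and 0.186 CPM with vehicle and at 1.13, 1.43 and 1.14 CPM with DOX in QGP-1 cells. The BON-1 levels were 0.941, 1.68 and 0.374 CPM and then 2.66, 3 and 2.07 CPM. There was no overlap, with log2 fold changes of 2.63 (SE 0.46, adjusted p = 0.000613) and 1.33 (SE 0.41, adjusted p = 0.0119). Without BON-1 vehicle replicate 3 or BON-1 DOX replicate 2 the BON-1 call was lost, at 0.97 and 1.20. COL9A3, a chain of the cartilage collagen IX, fell in QGP-1 cells from 1.2 ± 0.324 to 0.368 ± 0.168 CPM (SD, n = 3, −1.70, SE 0.47, adjusted p = 0.0118), which was lost without QGP-1 vehicle replicate 1 at −1.53.

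COL18A1, a basement membrane collagen whose end fragment is endostatin, stood at 1.91, 1.04 and 1.03 CPM with vehicle and at 1.15, 0.598 and 1.07 CPM with DOX in QGP-1 cells. In BON-1 cells it stood at 11.6, 13.1 and 11.6 CPM and then at 9.41, 10.7 and 6.55 CPM. The groups overlapped in QGP-1 cells (−0.48, adjusted p = 0.362) and not in BON-1 cells (−0.45, SE 0.17, adjusted p = 0.0405). The BON-1 call was lost without any vehicle library or without DOX replicate 1 or 3, at values between −0.51 and −0.28, and 18.5% of its exon bases are shared with SLC19A1 on the opposite strand. COL26A1 fell in BON-1 cells from 2.98 ± 0.483 to 1.42 ± 0.337 CPM (SD, n = 3, −1.07, adjusted p = 0.00993), lost without BON-1 vehicle replicate 1. COL6A3 fell there from 2.98 ± 0.707 to 1.57 ± 0.924 CPM (adjusted p = 0.0496), a call that 5 of the 6 fits without 1 library lost, all except that without DOX replicate 2. The remaining collagens tested, among them COL7A1 and COL17A1 of epithelial anchoring, were not called with DOX in either line, at log2 fold changes between −0.85 and 0.68.

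Before any DOX, BON-1 cells held more of most members than QGP-1 cells. Of the 52 reported members 34 were higher and 13 lower in BON-1 vehicle than in QGP-1 vehicle, which is 90.4% called beside 74.9% of all genes (37.5% higher and 37.5% lower). A member can pass the minimum through 1 line alone, so the 33 with a mean of 10 or more counts in both vehicle groups are the fairer set. Of these 24 were higher in BON-1 cells, 5 were lower and 4 were not called. The share of all genes at this same minimum was not counted. At the nearest setting tested, 10 counts in every library, 4831 of 12494 genes were higher and 4708 lower. The higher members included ITGB1 by 1.26 (SE 0.08, adjusted p = 4.93e-13), ITGA1 by 2.11 (SE 0.08), LAMA5 by 3.30 (SE 0.13) and LAMB1 by 7.58 (SE 0.14). The lower ones included ITGB6 at −3.52 (SE 0.14), ITGA9 at −3.43 (SE 0.25), ITGA6 at −0.73 (SE 0.07) and COL6A1 at −0.51 (SE 0.22, adjusted p = 0.0412).

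The COL6A1 call between the lines was lost without QGP-1 vehicle replicate 1 or 2, BON-1 vehicle replicate 1 or 2 or BON-1 DOX replicate 2, at values between −0.56 and −0.29. The 4 not called were ITGA3, ITGAE, ITGB4 and COL9A3. COL28A1 was at 0 in all BON-1 vehicle libraries and at least 57.1-fold lower there than in QGP-1 vehicle, at 2.43 CPM. The lines were kept in different media and sequenced to different depths, which cannot be told apart from the line.

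The responses to DOX differed between the lines for 13 of the 52 members, or 25% beside 16.7% of all genes. In 9 the response was lower in BON-1 cells (7.92% of all genes) and in 4 it was higher (8.8%). By family these were 7 of 19 integrins, 3 of 9 laminins and 3 of 24 collagens. ITGB6 and LAMB1 were called in opposite directions in the lines, ITGA1 and COL6A1 fell in both and more in BON-1 cells, and ITGA6 rose in both and more in QGP-1 cells.

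The genes around this system were counted by lists written from general knowledge. Of the enzymes and chaperones that modify, secrete and crosslink collagen, 8 of 24 tested fell and 3 rose in QGP-1 cells, and 12 of 21 fell and 2 rose in BON-1 cells, with medians of −0.22 and −0.37. That is 45.8% and 66.7% called, beside 35% and 35.3% of all genes tested. In QGP-1 cells the largest falls were those of CRTAP, part of the prolyl 3-hydroxylase complex (−1.12, adjusted p = 2.03e-05), P4HA1, a prolyl 4-hydroxylase (−0.98), and LOXL2, a lysyl oxidase that crosslinks collagen (−0.93). TLL2 (0.86), LOXL3 (0.51) and MIA3 (0.43), which loads procollagen for export, rose. In BON-1 cells the largest falls were those of P3H3 (−1.59), LOXL2 (−1.36) and PCOLCE, an enhancer of procollagen cleavage (−1.17). There COLGALT2, a collagen galactosyltransferase (1.45), and PLOD2, a lysyl hydroxylase (0.75), rose.

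Among basement membrane partners and other matrix ligands, 4 of 22 fell and 8 rose in QGP-1 cells (median 0). In BON-1 cells 7 of 20 fell and 5 rose (median 0.20). The shares called were 54.5% and 60%, beside 35% and 35.3% of all genes tested. NID1, which links laminin to collagen IV, fell from 31.8 ± 2.9 to 20.8 ± 1.81 CPM in QGP-1 cells, and the BON-1 means were 246 ± 15.7 and 131 ± 6.56 CPM (SD, n = 3, −0.61 and −0.92, adjusted p = 0.000419 and 2.54e-10). HSPG2, or perlecan, fell as well, at −1.18 and −0.58 (adjusted p = 0.000193 and 1.69e-05). AGRN fell in both lines (−1.06 and −0.52), and SPP1 fell in QGP-1 cells (−0.37). TGFBI rose in QGP-1 cells (0.82, adjusted p = 1.02e-05) and fell in BON-1 cells (−0.55, adjusted p = 2.3e-06). FBLN1, at a mean of 41.33 counts in BON-1 cells and named after its values were seen, had the largest fall of the list there (−2.06, adjusted p = 7.22e-05).

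THBS1, thrombospondin, rose by 1.04 in each line, from 69.1 ± 1.95 to 142 ± 5.98 CPM and from 298 ± 11.3 to 617 ± 30.7 CPM (SD, n = 3, adjusted p = 2.23e-07 and 1.69e-11). FN1, fibronectin, rose in QGP-1 cells from 0.52 ± 0.41 to 4.31 ± 1.41 CPM (3.1, SE 0.44, adjusted p = 0.00013) and was at 205 ± 17.8 CPM in BON-1 vehicle. TNC, tenascin-C, rose in QGP-1 cells from 10.3 ± 1.06 to 24.1 ± 4 CPM (1.22, adjusted p = 1.49e-05) and was at 0 in all BON-1 libraries. CTGF (0.94 and 1.49) and FRAS1 (0.54 and 0.46) rose in both lines, and NTN4 (1.55) and CYR61 (0.57) were called higher in the BON-1 line.

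Of other matrix receptors and membrane partners of integrins, 9 of 18 fell and 2 rose in QGP-1 cells (median −0.14). In BON-1 cells 8 of 18 fell and 2 rose (median −0.18). The shares called were 61.1% and 55.6%, beside 35% and 35.3% of all genes tested. The tetraspanins CD9 (−1.90), CD82 (−1.39) and TSPAN8 (−1.05), which gather integrins into membrane domains, had the largest falls in QGP-1 cells, where DDR2, a collagen receptor kinase (0.78), and CD47 (0.37) rose. TSPAN8 rose in BON-1 cells (0.80, adjusted p = 7.78e-08), as did SDC2 (0.20). BSG (−0.71), the laminin receptor BCAM (−0.68) and CD81 (−0.64) had the largest falls there.

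At the integrin tails, 8 of 31 fell and 5 rose in QGP-1 cells and 7 of 31 fell and 7 rose in BON-1 cells, with medians of 0 and 0.01. That is 41.9% and 45.2% called, beside 35% and 35.3% of all genes. In QGP-1 cells the falls were largest for TNS1 (−1.37), ILK (−0.46) and KANK1 (−0.45). TNS1 also fell in BON-1 cells, from 0.918 ± 0.347 to 0.0507 ± 0.0509 CPM (SD, n = 3, adjusted p = 0.000322), the largest fall of the list there but at a mean of 11.33 counts. Among genes with a mean of 50 counts or more, SRC (−0.68), BCAR1 (−0.57) and ITGB1BP1 (−0.50) fell most in BON-1 cells. TLN2, a talin (1.19), DST (0.60), FERMT2 (0.39) and PLEC (0.28) were among those that rose in QGP-1 cells, and DST (0.53) and RSU1 (0.48) among those that rose in BON-1 cells. Of matrix metalloproteinases and inhibitors, 2 of 11 fell and 4 rose in QGP-1 cells (median −0.11), and 4 of 14 fell and 2 rose in BON-1 cells (median −0.21). That is 54.5% and 42.9% called, beside the same shares of all genes. MMP2, a gelatinase that cleaves collagen IV, rose from 63.9 ± 8.1 to 102 ± 2.01 CPM in QGP-1 cells and fell from 41 ± 5.69 to 14.4 ± 1.14 CPM in BON-1 cells (SD, n = 3, 0.67 and −1.52). TIMP1 likewise rose in QGP-1 cells (0.48) and fell in BON-1 cells (−0.52), while MMP13, a collagenase, rose in both (1.16 and 0.73). In QGP-1 cells MMP1 (1.26) also rose and RECK (−0.82) and TIMP2 (−0.50) fell, and in BON-1 cells TIMP3 (0.71) rose and MMP17 (−1.45) and MMP14 (−0.76) fell.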

How the data were processed

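The authors prepared stranded mRNA libraries from 3 cultures per group, aligned reads with STAR to GRCh38 and deposited raw counts per gene and TPM values for each line. The STAR version, the counter, its strand setting and the gene lengths are not given in the sources used here. The deposited counts were tested here with edgeR 4.0.16 (R 4.3.3), with its default filter, TMM scaling, a quasi-likelihood fit per line and Benjamini-Hochberg adjustment over all genes, and called at an adjusted p below 0.05. The difference of responses and the vehicle comparison came from 1 fit of 12 libraries. The standard error is the log2 fold change divided by the square root of F. CPM use TMM factors over all 12 libraries. The deposited TPM served for shares within a chain class and, as log2(TPM + 1) with a minimum mean of 1, for limma 3.58.1. DESeq2 1.42.0 was another alternative.

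The members and lists were chosen with earlier results of these data known. Reported members had a mean count of 10 or more in a line. Library values are given for 14 basement membrane genes, for members called the same way in both lines, and per line for up to 4 called members in each direction with mean counts of 50 or more. List members are all named where 5 or fewer were called in a direction, otherwise up to 3. Lists covered collagen processing, matrix ligands, receptors, integrin tails, proteases and markers of neuroendocrine, epithelial, fibroblast, endothelial and leukocyte cells. The paper describes biologic triplicates, but how separately the cultures of a group were handled is not given. The p-values therefore measure the spread between these samples, which may be technical. On simulated data with 200 genes changed 1.5-fold, 85% were recovered for QGP-1 cells (15061 genes) and 87% for BON-1 cells (14595 genes), and 30.5% for the difference of responses (16501 genes). With 2-fold changes 83% were recovered for that difference (16505 genes). The changed genes were drawn from those with a mean count of 50 or more, with 1 common spread for all genes. Recovery among members with fewer counts was not simulated. Coordinates and start stretches are of RefSeq GRCh38.p14, which held all 52 reported members, and exon overlaps are of GENCODE. Every column holding values of a sample was used (0 unused). Some genes of the lists are counted but not reported by name here.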

Additional observations from a re-analysis of the deposited data

Results flagged for a closer look

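The response to DOX differed between BON-1 and QGP-1 cells for 13 members by edgeR's test of the interaction (adjusted p below 0.05, BON-1 minus QGP-1, log2 scale). Among receptors the differences were −0.50 for ITGA1, −0.55 for ITGA3, −0.85 for ITGA4, 1.73 for ITGA5, −0.37 for ITGA6, −3.36 for ITGB3 and 1.67 for ITGB6. Among ligands they were 2.29 for LAMA3, −1.24 for LAMB1, −0.56 for LAMC1, 0.98 for COL4A5, −0.97 for COL5A2 and −1.42 for COL6A1. The value of ITGB3 rests on means under 1 CPM and that of COL5A2 on QGP-1 levels of at most 1 CPM. The QGP-1 means with vehicle and DOX were 0.7 and 0.351 CPM for LAMA3 and 1.31 and 0.717 CPM for COL4A5. Neither was called in QGP-1 cells alone. Markers also moved with DOX. In BON-1 cells CD68 (1.00), LUM (1.01), KRT19 (0.79), KRT8 (0.62), KRT18 (0.58) and SCG2 (0.45) were among those called higher. CHGA (−1.46) and FAP (−1.04) were among those called lower there. In QGP-1 cells LYZ (0.64), CHGB (0.39) and SCG3 (0.34) were called higher. FAP (−2.65), CLDN7 (−0.53) and NCAM1 (−0.51) were called lower there. Their part in these differences was not tested.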

How the results depend on the processing

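With edgeR the members called with DOX numbered 17 in QGP-1 cells (8 lower, 9 higher) and 24 in BON-1 cells (14 lower, 10 higher), and 18 and 22 with DESeq2 and 16 and 22 with library size scaling. Above an absolute log2 fold change of 1 they numbered 4 (3 lower, 1 higher) and 5 (3 lower, 2 higher), and the 13 with a different response numbered 6 (3 lower), by construction. Leaving out 1 library gave 12 to 19 (5 to 9 lower, 7 to 10 higher) in QGP-1 cells, 19 to 22 (11 to 15 lower, 7 to 10 higher) in BON-1 cells, 10 to 14 different responses (6 to 10 lower, 4 to 6 higher) and 42 to 47 between the vehicle groups (11 to 14 lower, 31 to 34 higher). At 10 counts in every library, which leaves fewer genes to test, 23 were called between the vehicle groups (3 lower, 20 higher). Of all 12494 genes at that setting, 4708 were lower and 4831 higher. On the log2(TPM + 1) scale limma called 12 of 14 members tested in QGP-1 cells (0 lower, 12 higher, and 0 lower at an unadjusted p under 0.05). Over all genes there, 9166 of 10561 were called higher and 91 lower. In BON-1 cells it called 0 of 28 members (0 lower, 0 higher, but 8 at an unadjusted p under 0.05). Over all genes in that line, 29 of 11954 were called higher and 229 lower. On that scale the QGP-1 values of ITGA1, ITGA3 and ITGAV turned to 0.48, 0.34 and 0.14, below the median of 0.59 over all genes. The BON-1 values of ITGA5, ITGB5, LAMA4 and LAMB3 turned to −0.17, −0.10, −0.08 and −0.16, above the median of −0.31 over all genes. The cause was not tested. Without 1 library, uncalled BON-1 values ranged across 0, from −0.11 to 0.05 for COL4A1, −0.08 to 0.23 for ITGA5 and −0.43 to 0.43 for ITGA9, as did the differences of responses of LAMA5 (−0.27 to 0.04) and LAMB2 (−0.32 to 0.06). Libraries with the same replicate number deviated from their group means with correlations between −0.014 and 0.043, so the numbers do not pair them. A replicate block gave 17 calls in QGP-1 cells, 25 in BON-1 cells and 13 different responses, and turned the BON-1 value of ITGA9 to 0.07. Depth limits members under about 1 CPM, and 28 members were under the count minimum.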
